A study of Mus musculus with 18 samples.

Results

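The immunity-related GTPases (IRGs) measured here are 9 genes, *Irgm1*, *Irgm2*, *Igtp*, *Iigp1*, *Gm12250*, *Tgtp1*, *Tgtp2*, *Gm4951* and *Ifi47*, of the 55573 genes in the count table. They were chosen by name and by family after their CPM in single samples of the 3 groups had been seen, so their levels, fold changes and p-values describe these samples and support nothing beyond them. RNA-sequencing was performed on ipsilateral spinal dorsal horn tissue (DHSC) of adult C57BL/6J mice. All mice had received 2% formalin in the hindpaw, and the tissue was taken 2 h later, so that no sample represents an uninjected state. The 3 groups of 6 samples were compared, namely F1/proestrus females, F2/metestrus females and males, where F1 and F2 name females with a short or a long quiet interphase in the formalin test. The female samples were thus selected on both behavior and estrus stage, and these cannot be told apart. The methods call the samples biological replicates.

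The IRGs are GTPases that mouse cells make in response to interferons, and they are known for the defence against intracellular pathogens that live in vacuoles. The family is divided by a motif of the nucleotide-binding loop. The GMS proteins *Irgm1*, *Irgm2* and *Igtp* (also called Irgm3) sit on the membranes of the host cell and keep the other members inactive there. The GKS proteins, which include *Iigp1* (Irga6), *Gm12250* (Irgb10), *Tgtp1* and *Tgtp2* (both Irgb6) and *Ifi47* (Irgd), load onto the membrane of a pathogen vacuole and disrupt it, together with guanylate-binding proteins. Interferon-gamma drives these genes through short promoter elements, among them gamma-activated sequences (GAS) and interferon-stimulated response elements (ISRE), the latter bound by IRF1.

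In GENCODE vM21 on GRCm38, 7 of the 9 genes lie on chromosome 11, in 2 clusters, and the other 2 are placed with their values. *Irgm1* (48861968 to 48871683, minus strand), *Tgtp1* (48985327 to 48994172, minus strand), *Tgtp2* (49057194 to 49064206, minus strand) and *Ifi47* (49076587 to 49096974, plus strand) form the first cluster. *Gm12250* (58187739 to 58189012), *Igtp* (58199556 to 58207591) and *Irgm2* (58199618 to 58222782), all on the plus strand, form the second. Some counts are uncertain because of this arrangement. *Igtp* and *Irgm2* share 162 bp of exon on the same strand, and GENCODE annotates *Gm12250* as a processed pseudogene of 1274 bp. *Tgtp1* and *Tgtp2* are near copies of each other: 81.2% and 86.6% of the 50-base stretches of their transcripts also occur in another gene, so that reads uniquely mapped to them come from the small part that differs. Of the other members, *Igtp* shared 11.8% and *Irgm2* 7.83% of these stretches, and the remaining ones at most 4.81%.

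The stretches that hold ISRE and GAS letters in the RefSeq promoters (GRCm38.p6) are shown because 6 members hold them and the transcripts of all members had the same 3 highest samples. The ISRE core was searched as GAAANNGAAA and the GAS as TTCNNNGAA, on both strands, in windows from 250 bases before to 50 bases after each start site. Matches are in capitals, and sequences are given 5′ to 3′ on the strand of the gene.
*Irgm1*, chr11:48871421-48871465, minus strand: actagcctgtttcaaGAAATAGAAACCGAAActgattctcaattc
*Igtp*, chr11:58199496-58199546, plus strand: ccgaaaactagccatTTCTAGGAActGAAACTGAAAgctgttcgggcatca
*Irgm2*, chr11:58214887-58214937, plus strand: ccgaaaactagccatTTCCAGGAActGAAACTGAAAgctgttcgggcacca
*Tgtp1*, chr11:48992299-48992349, minus strand: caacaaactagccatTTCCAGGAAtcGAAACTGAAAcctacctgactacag
*Tgtp2*, chr11:49064258-49064308, minus strand: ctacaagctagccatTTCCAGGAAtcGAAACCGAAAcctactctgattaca
*Gm12250*, chr11:58183737-58183821, plus strand: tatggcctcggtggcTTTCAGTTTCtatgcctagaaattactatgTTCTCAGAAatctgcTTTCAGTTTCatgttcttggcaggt

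Only the windows of 7 of the 9 members, those on chromosome 11, were searched. *Iigp1* and *Gm4951*, on chromosome 18, were not included. Of the 7 windows, 6 held the ISRE core, 5 the GAS and 5 both, against 3.44%, 8.30% and 0.454% of the 32851 windows of all genes. In *Igtp*, *Irgm2*, *Tgtp1* and *Tgtp2* the GAS preceded the ISRE core with 2 bases between them. The stretches of *Igtp* and *Irgm2* were identical at 49 of 51 bases, and those of *Tgtp1* and *Tgtp2* at 39 of 51 bases. *Irgm1* held 2 overlapping ISRE cores and no GAS. *Gm12250* held 2 ISRE cores on the opposite strand with a GAS between them, and its RefSeq start lies upstream of the single exon that GENCODE gives. The windows of *Irgm1*, *Irgm2* and *Tgtp1* lie inside the GENCODE spans given above. They run from 48871371 to 48871670, from 58214727 to 58215026 and from 48992197 to 48992496. Neither motif was matched in the window of *Ifi47*. The matches are descriptions of these windows, and binding was not measured.

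**Figure D1:**
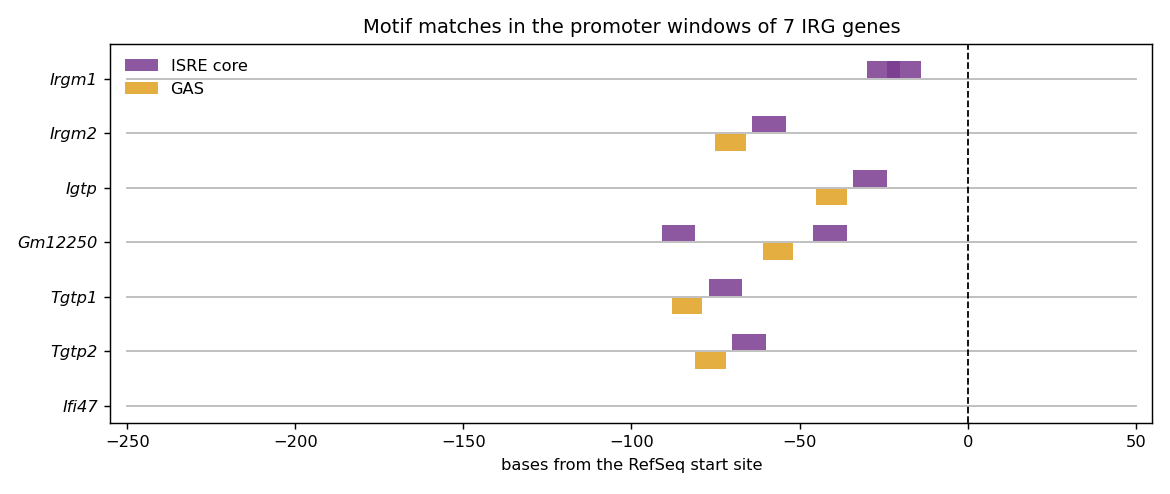
Positions of ISRE core and GAS matches (bars, drawn to the length of the motif) from 250 bases before to 50 bases after the RefSeq start site (dashed line) of 7 IRG genes. In 4 genes a GAS stands 2 bases before an ISRE core, and *Ifi47* has no match.

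All 9 transcripts were detected in every sample. Libraries held 73590509 to 125724156 counted reads, and 3 counts, taken as the floor, corresponded to 0.0240 to 0.0407 CPM, the reads of a gene per 1000000 counted reads after TMM scaling. This floor covers counting error only. All 9 members passed the filter on low counts, as did 24862 genes over the 18 samples. The lowest counts of any member in a sample were 9 reads, for *Gm12250* and for *Gm4951*, and the highest were 2952 reads, for *Irgm1*. The tissue held the transcripts of its own cells at high level, with summed oligodendrocyte markers at 28835 CPM or more and summed neuron markers at 4574 CPM or more in each sample. The library numbers form 2 series, each with 3 samples of every group, and within-series values are given for the comparisons below.

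Levels between genes were compared per length, as RPKM. In F1/proestrus females *Igtp* was highest at 4.08 ± 0.718 RPKM (SD, n = 6), followed by *Irgm1* at 3.32 ± 0.161 RPKM, and the ranges of these genes overlapped. *Irgm2* stood at 1.81 ± 0.319 RPKM and *Ifi47* at 0.739 ± 0.223 RPKM, and neither range overlapped with its neighbours in this order. The GKS genes *Tgtp2*, *Iigp1*, *Gm12250*, *Tgtp1* and *Gm4951* followed with mean levels of 0.304, 0.238, 0.210, 0.148 and 0.143 RPKM, each overlapping with the next. The males had the same order of mean levels, from 3.40 ± 0.352 RPKM for *Igtp* (n = 6) to 0.0981 ± 0.0601 RPKM for *Gm4951*. By these values the inhibitory GMS genes were the most abundant members per length. The full exon length was used for each gene, although 81.2% of the stretches of *Tgtp1* and 86.6% of those of *Tgtp2* occur in another gene. The RPKM of these 2 genes may thus be too low, and their place in the order is uncertain. In F2/metestrus females the means were 8.18 ± 5.20 RPKM for *Igtp*, 4.44 ± 1.29 RPKM for *Irgm1* and 2.997 ± 1.42 RPKM for *Irgm2* (n = 6), and *Gm12250*, at 1.38 ± 1.39 RPKM, stood next to *Ifi47* at 1.78 ± 1.11 RPKM. These SDs were wider than in the other groups.

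F2/metestrus samples 2, 4 and 5 stood apart. In all 9 members they were the 3 highest of the 18 samples, and the summed level of the family was 74.5, 117 and 117 CPM in them, against 29.8 to 43.8 CPM in the other 15 samples. Over the 24862 genes that passed the filter, 54 had the same 3 highest samples (0.217%), and the 9 members are among these 54. Sample 5 was highest in 6 members and sample 4 in *Irgm2*, *Tgtp1* and *Tgtp2*, and sample 2 was the third highest in each of the 9. F2/metestrus samples 1, 3 and 6 lay inside the range of F1/proestrus females and males in 6 of the 9 members, and in *Iigp1*, *Tgtp1* and *Gm4951* 1 of them lay above that range. The 3 samples that stood apart come from both library series. In bulk tissue, more cells that express a transcript and more RNA per cell cannot be told apart.

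**Figure D2:**
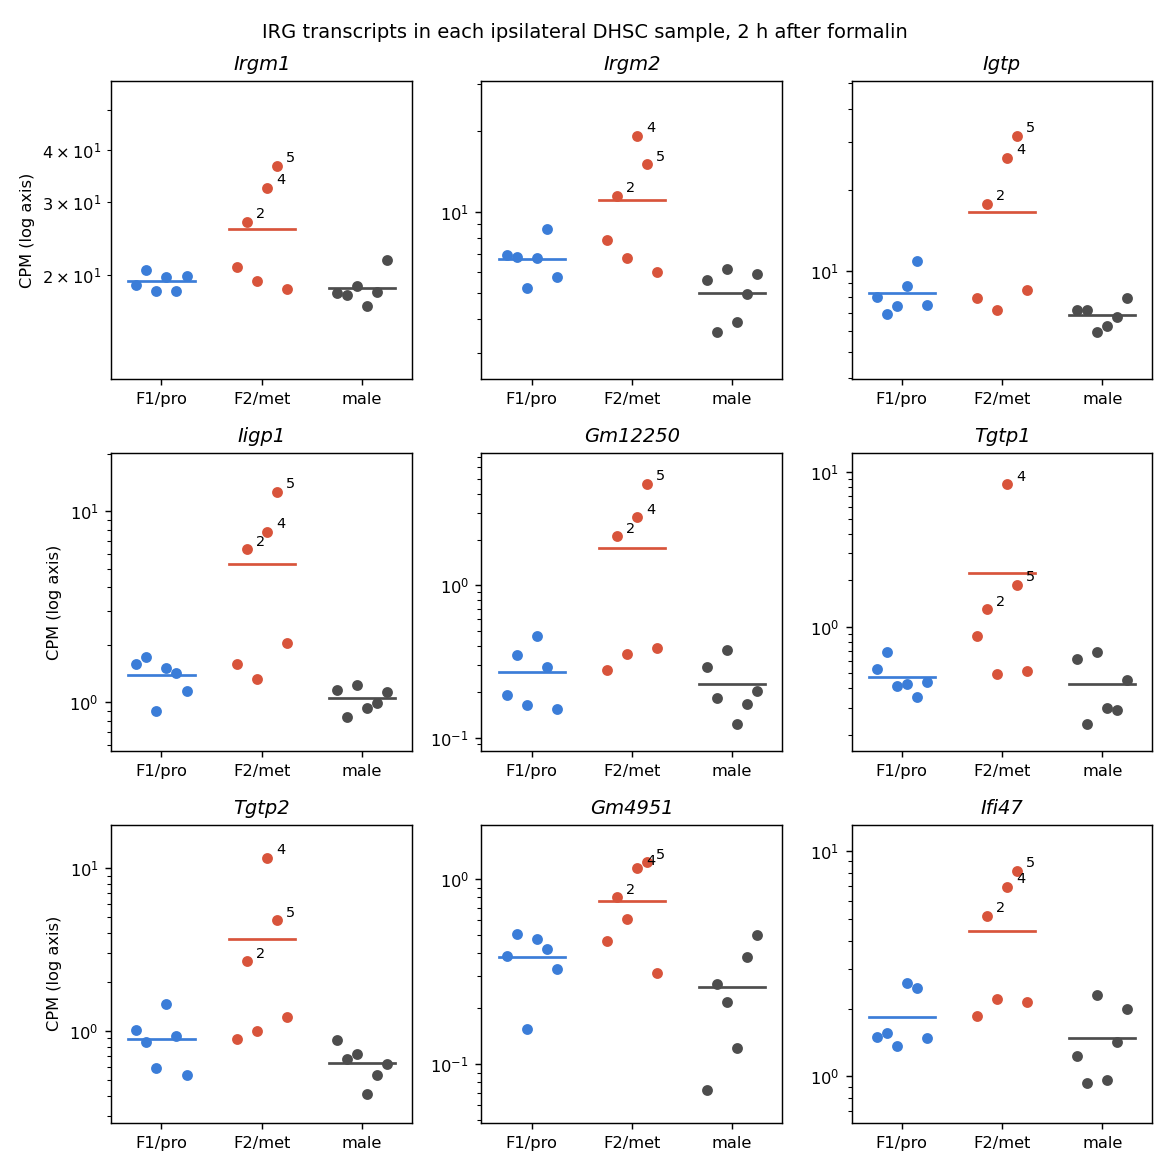
CPM (log axis) of each IRG transcript in every sample, by group, with the group mean as a line; numbers mark F2/metestrus samples 2, 4 and 5. These 3 samples lie above all others in each panel, by the least in *Irgm1* and by the most in *Gm12250*.

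*Irgm1*, the GMS protein that also acts in autophagy and mitochondrial turnover, varied least. Its lowest, median and highest values were 18.3, 19.4 and 20.6 CPM in F1/proestrus females, 18.5, 23.9 and 36.7 CPM in F2/metestrus females, and 16.8, 18.1 and 21.8 CPM in males. The 3 groups overlapped, and F2/metestrus samples 2, 4 and 5, at 26.9, 32.5 and 36.7 CPM, were the only ones above 21.8 CPM. *Irgm2*, which restrains GKS proteins at Golgi membranes, ranged from 5.22 to 8.64 CPM in F1/proestrus females with a median of 6.78 CPM. In F2/metestrus females it ranged from 5.99 to 19.2 CPM with a median of 9.68 CPM, and in males from 3.58 to 6.12 CPM with a median of 5.28 CPM. Its highest value was that of F2/metestrus sample 4, and males overlapped only with the lower part of both female groups. *Igtp*, found at the endoplasmic reticulum and on lipid droplets, had values of 6.90 to 10.9 CPM in F1/proestrus females (median 7.75 CPM) and 5.94 to 7.93 CPM in males (median 6.95 CPM). Its F2/metestrus values reached from 7.13 to 31.7 CPM, with a median of 13.1 CPM. Samples 2, 4 and 5 held 17.8, 26.2 and 31.7 CPM of *Igtp*, and the other 3 F2/metestrus samples at most 8.49 CPM.

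The GKS effectors had lower mean CPM in each group, with the limit on *Tgtp1* and *Tgtp2* given above. *Iigp1*, the member best studied for coating parasite vacuoles, lies on the plus strand of chromosome 18 (60376027 to 60392634). It had 0.905, 1.47 and 1.73 CPM as lowest, median and highest value in F1/proestrus females, and 0.833, 1.06 and 1.23 CPM in males. In F2/metestrus females the corresponding values were 1.32, 4.18 and 12.6 CPM. All 6 F2/metestrus values lay above the highest male, whereas the range of the F1/proestrus females overlapped with both. For *Gm12250*, which encodes a GTPase that opens the membranes of cytosolic bacteria for inflammasome sensing, values ran from 0.153 to 0.462 CPM in F1/proestrus females (median 0.240 CPM) and from 0.122 to 0.378 CPM in males (median 0.192 CPM). F2/metestrus samples 2, 4 and 5 had 2.11, 2.80 and 4.64 CPM of *Gm12250*, while the other 3 had between 0.276 and 0.389 CPM. The gap above the next sample was 4.55-fold, the widest of the 9 members. *Ifi47*, a GKS gene with no motif match in its window, had the same 3 highest samples, with 5.16, 6.93 and 8.17 CPM in samples 2, 4 and 5. Its other F2/metestrus values were 1.86 to 2.20 CPM, inside the joint range of 0.933 to 2.60 CPM of F1/proestrus females and males. *Gm4951* (60212080 to 60247820, plus strand) is a neighbour of *Iigp1* on chromosome 18. It had 0.154 to 0.507 CPM in F1/proestrus females (median 0.401 CPM), 0.309 to 1.23 CPM in F2/metestrus females (median 0.702 CPM) and 0.0721 to 0.497 CPM in males (median 0.244 CPM). With 9 to 104 reads a sample, it is the member with the smallest highest count.

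*Tgtp1* and *Tgtp2*, the near copies that encode vacuole-binding GKS proteins, were highest in F2/metestrus sample 4, as was *Irgm2*. *Tgtp1* had a median of 0.433 CPM in F1/proestrus females (0.350 to 0.685 CPM) and of 0.377 CPM in males (0.236 to 0.685 CPM). In F2/metestrus samples 2, 4 and 5 it reached 1.30, 8.37 and 1.86 CPM. *Tgtp2* had medians of 0.891 CPM (0.536 to 1.45 CPM) and 0.647 CPM (0.407 to 0.874 CPM) in the same groups, and 2.68, 11.6 and 4.80 CPM in samples 2, 4 and 5. Sample 4 thus stood above sample 5 in both. The ratio of sample 4 to sample 5 was 4.49 for *Tgtp1* (95% exact interval 3.76 to 5.39), 2.42 for *Tgtp2* (2.15 to 2.73), and 1.27 for *Irgm2* (1.18 to 1.37). In the other 6 members it was below 1, from 0.604 for *Gm12250* (0.513 to 0.711) and 0.616 for *Iigp1* (0.559 to 0.679) to 0.929 for *Gm4951* (0.698 to 1.24). These intervals cover counting error only and compare these 2 libraries. Across the 36 pairs of members, Spearman's rho over the 18 samples ranged from 0.404 to 0.899 with a median of 0.752, and without F2/metestrus samples 4 and 5 from 0.153 to 0.859 with a median of 0.649. These points share their libraries and depth, and some members share sequence, so the correlations are given as descriptions.

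Between the female groups, all 9 members had higher fitted levels in F2/metestrus than in F1/proestrus, and 0 of the 9 passed the test at an FDR of 5% (edgeR quasi-likelihood test with Benjamini-Hochberg adjustment, all adjusted p = 0.99998). The same test called 0.0% of the 24042 genes tested. At an unadjusted p under 0.05 there were 9 members and 596 genes. DESeq2 also called 0 of the 9 members, with adjusted p from 0.448 upwards, and 0.00453% of its genes. The log2 fold changes of the GMS genes were 0.41 ± 0.15 (SE, n = 6 per group) for *Irgm1*, 0.72 ± 0.25 for *Irgm2* and 0.996 ± 0.331 for *Igtp*. Among the GKS genes they were 0.99 ± 0.34 for *Gm4951*, 1.26 ± 0.36 for *Ifi47*, 1.92 ± 0.48 for *Iigp1*, 2.04 ± 0.57 for *Tgtp2*, 2.22 ± 0.61 for *Tgtp1* and 2.70 ± 0.65 for *Gm12250*. The median of the members was 1.26, and that of all genes tested was -0.00038. Values within series 1 ranged from 0.21 for *Irgm1* to 1.94 for *Gm12250* and within series 2 from 0.59 for *Irgm1* to 3.14 for *Tgtp1*, all above 0. With F2/metestrus samples 2, 4 and 5 left out, a step chosen after seeing the data and on these same values, the log2 fold changes lay between -0.07 for *Igtp* and 0.41 for *Tgtp1* with a median of 0.21. Without sample 4 alone the values were 1.07 for *Tgtp1* and 1.23 for *Tgtp2*. F1/proestrus sample 5 stood apart in summed sensory ganglion neuron markers, at 719 CPM where the remaining 17 held 15.7 to 91.6 CPM. Leaving it out gave log2 fold changes from 0.40 for *Irgm1* to 2.73 for *Gm12250*.

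**Figure D3:**
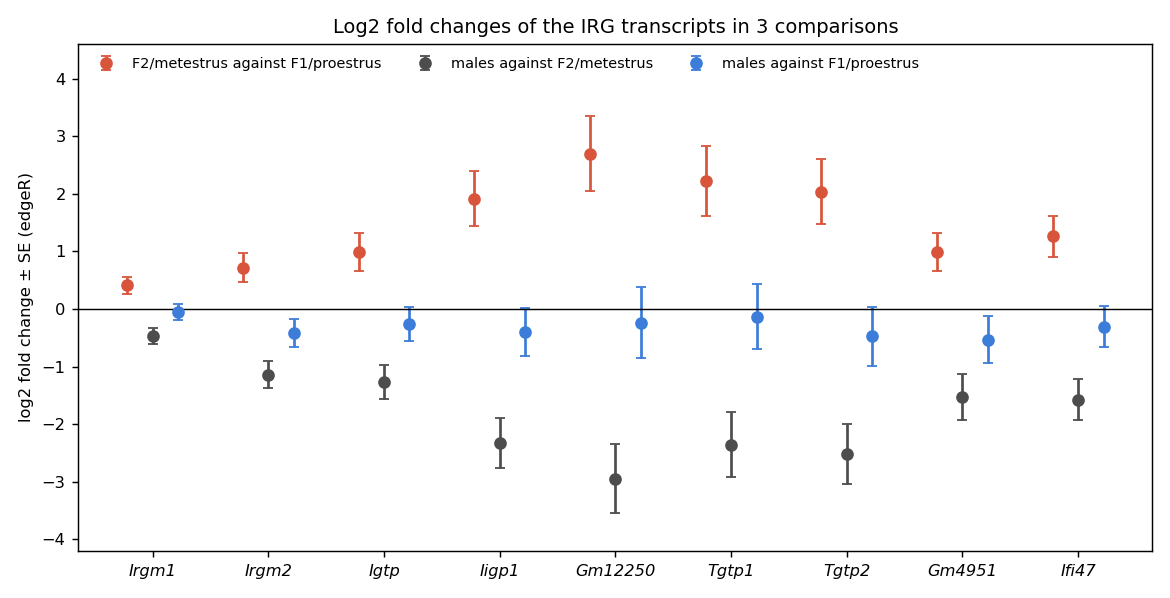
Log2 fold change (edgeR) of each IRG transcript in 3 comparisons, with bars of 1 SE and 6 samples per group; the comparisons share samples. The values are above 0 for F2/metestrus against F1/proestrus, below 0 for males against F2/metestrus, and between -0.53 and -0.05 for males against F1/proestrus.

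For the sexes, males were compared with the 12 females as a single condition. All 9 members were lower in males by their fitted values, which ranged from -2.14 for *Gm12250* to -0.28 for *Irgm1* on the log2 scale with a median of -1.11. With edgeR 0 of the 9 were called, with adjusted p from 0.276 to 0.521, and the test called 0.197% of 24862 genes. At an unadjusted p under 0.05 in edgeR there were 8 members and 2416 genes (9.72%). DESeq2 called 0 of the 9 as well (lowest adjusted p 0.133) and 0.696% of its genes. *Irgm2*, the member with the smallest p, was lower by 0.82 ± 0.25 on the log2 scale (SE, 6 males and 12 females). With F2/metestrus samples 2, 4 and 5 left out the values ranged from -0.64 to -0.07 with a median of -0.37, and without sample 4 alone *Tgtp1* went from -1.63 to -0.72 and *Tgtp2* from -1.83 to -1.16.

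Each female group was then compared with the males alone. These comparisons share the 6 males, and the values are set side by side. Against F1/proestrus females, log2 fold changes of males ranged from -0.53 ± 0.41 (SE) for *Gm4951* to -0.05 ± 0.13 for *Irgm1*, with a median of -0.30. For this contrast edgeR and DESeq2 each called 0 of the 9 (0 at an unadjusted p under 0.05 in edgeR), against 0.0925% and 0.227% of all genes. Of all genes, 6.54% had an unadjusted p under 0.05 in edgeR. The ranges of the groups overlapped in all 9 members. Against F2/metestrus females the log2 fold changes of males were -0.47 for *Irgm1*, -1.14 for *Irgm2*, -1.27 for *Igtp*, -1.53 for *Gm4951*, -1.57 for *Ifi47*, -2.32 for *Iigp1*, -2.36 for *Tgtp1*, -2.52 for *Tgtp2* and -2.94 for *Gm12250*. There edgeR called 1 of the 9, *Iigp1* (SE 0.43, adjusted p = 0.0263), against 0.129% of all genes, and the other 8 had adjusted p from 0.0554 to 0.299. DESeq2 called 8 of the 9, every member but *Irgm1* (adjusted p = 0.0852), against 0.43% of its genes.

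The call of *Iigp1* was close to the threshold, and leaving out any 1 of several samples ended it. Its log2 fold change stayed between -2.53 and -1.86 with any single sample left out. Without F2/metestrus sample 2, 4 or 5 the adjusted p was 0.0645, 0.0721 and 0.0639, and it was above 0.05 also without male 2, 3, 4, 5 or 6. The number of members called by edgeR went from 1 to 6, 5 and 4 without F2/metestrus sample 1, 3 and 6, and to 0 with samples 2, 4 and 5 left out singly or together or with male 2, 3, 4, 5 or 6 left out. With all 3 left out, males remained below F2/metestrus females in fitted value by -0.81 to -0.08 on the log2 scale, with a median of -0.54.

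The pathway upstream of the IRGs was then examined. Of 8 interferon ligand genes, 3 had no read in any sample and 7 never exceeded 3 reads. *Ifng*, the main inducer of the family, had 2 reads in F2/metestrus samples 1 and 5 and in male 4, and 0 in the other 15 samples, which allows up to the floor of 3 counts in each. *Ifnb1* had at most 4 reads. At this depth an interferon transcript could not be compared between groups. The receptor chains were all present. *Ifngr1*, which binds interferon-gamma, ranged from 23.95 to 31.7 CPM over the 18 samples, and *Ifngr2*, *Ifnar1* and *Ifnar2* from 41.7 to 57.7, from 39.7 to 48.4 and from 21.3 to 27.7 CPM. Their log2 fold changes between the female groups were 0.01 to 0.08, with 0 of 4 called in any of the 4 comparisons by edgeR and 0 of 4 at an unadjusted p under 0.05.

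Of the 15 JAK-STAT and IRF factors, 9 were above and 6 below 0 between the female groups, with a median log2 fold change of 0.0038. For this list edgeR called 0 between the female groups (4 at an unadjusted p under 0.05) and 0 between males and F2/metestrus females (4 at an unadjusted p under 0.05). Of all genes tested, 2.48% and 8.31% had an unadjusted p under 0.05 in these comparisons. *Irf1*, an ISRE-binding factor, had its 3 highest values in the same samples, at 11.7, 10.9 and 16.4 CPM against 5.90 to 8.59 CPM in the other 15. Its log2 fold change between the female groups was 0.41 ± 0.18 (SE, n = 6 per group). *Irf7*, a factor of the type I response, had a log2 fold change of 0.42 ± 0.16, *Irf8*, a myeloid factor, of 0.25 ± 0.14, and *Irf9*, an ISRE-binding factor of the type I response, of 0.05 ± 0.08. For *Irf2* and *Irf3* it was -0.02 ± 0.08 and -0.03 ± 0.06. The class I transactivator *Nlrc5*, chosen after its values were seen, also had its 3 highest values in samples 2, 4 and 5, at 3.02, 3.57 and 3.93 CPM against at most 2.22 CPM elsewhere.

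**Figure D4:**
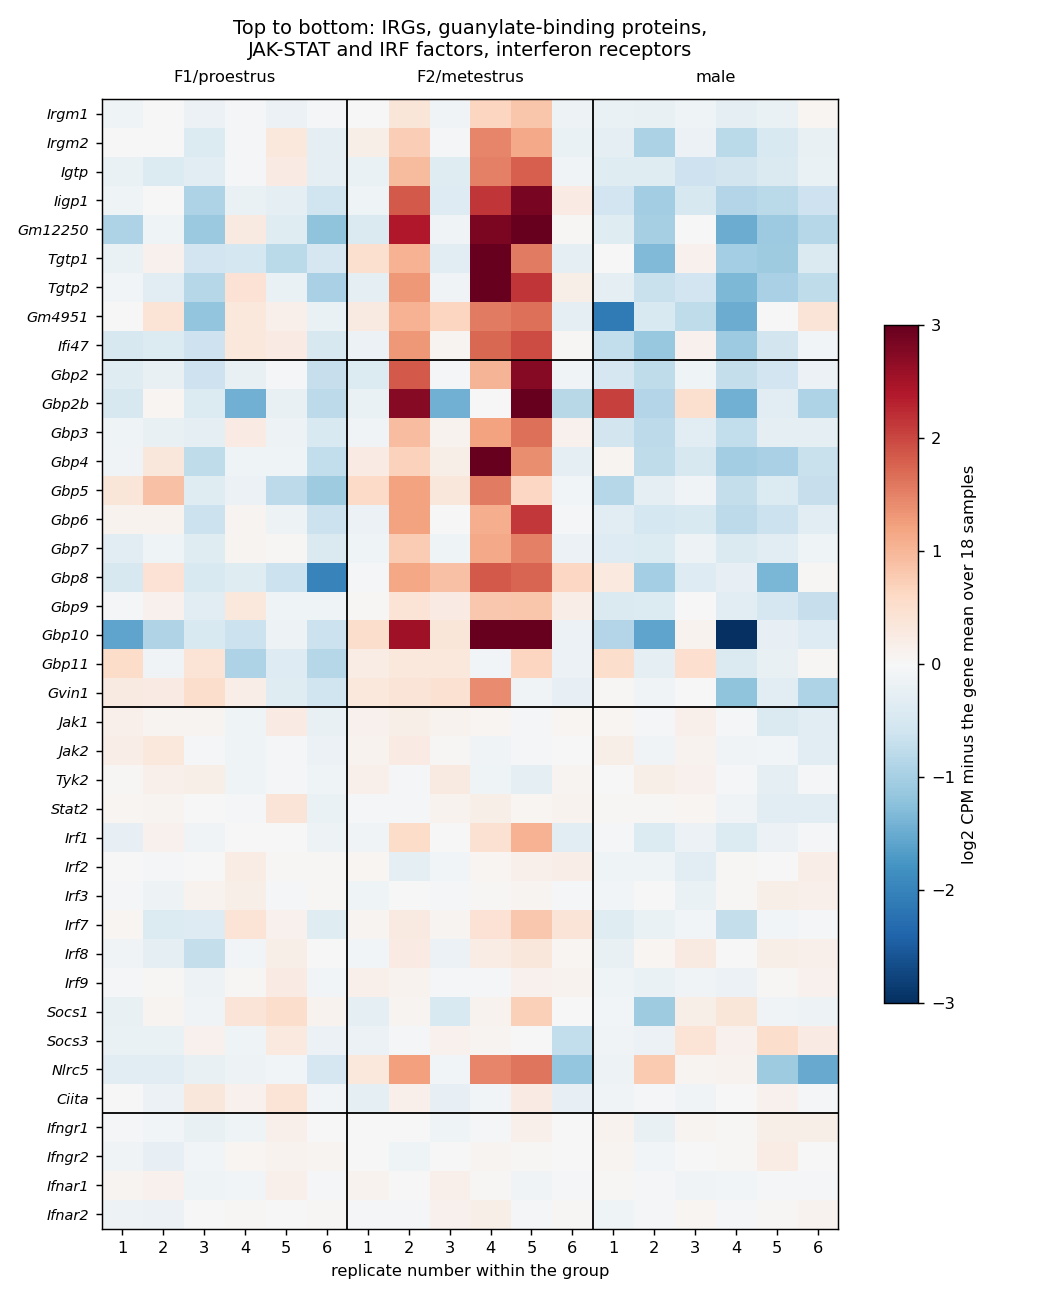
Log2 CPM (prior count of 2) minus the mean over 18 samples, for IRGs, guanylate-binding proteins, JAK-STAT and IRF factors and interferon receptors, in rows, and the 18 samples in columns; colors are clipped at -3 and 3. F2/metestrus samples 2, 4 and 5 are above the mean in all 9 IRG rows, and the receptor rows are nearly uniform.

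The guanylate-binding proteins, interferon-induced GTPases of larger size that work with the GKS proteins at vacuoles, provided 5 of the 10 genes most alike to the family in pattern. Of the 12 genes, 8 had samples 2, 4 and 5 as their 3 highest. *Gbp2* had 24.5, 13.9 and 45.6 CPM in these samples and at most 6.51 CPM in the others. *Gbp3* had 15.5, 18.9 and 25.5 CPM against at most 9.62 CPM. Between the female groups all 11 tested were above 0 with a median log2 fold change of 0.95, and edgeR called 0 of the 11 (9 at an unadjusted p under 0.05), whereas DESeq2 called *Gbp10* alone (adjusted p = 0.0377). Between males and F2/metestrus females all 11 were below 0 with a median of -1.30, and edgeR called 3, *Gbp3* (-1.27 ± 0.24, adjusted p = 0.0284), *Gbp9* (-0.83 ± 0.15, adjusted p = 0.0236) and *Gbp10* (-3.41 ± 0.67, adjusted p = 0.0450, SE in each case). With samples 2, 4 and 5 left out the median was -0.54 and 0 were called.

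Other lists of interferon-induced genes had smaller median fold changes than the IRGs, with single genes above the IRG median. Of 22 genes typical of the type I response, only *Oas2* and *Zbp1* shared the 3 highest samples, and the median log2 fold change between the female groups was 0.19, with 0 called (4 at an unadjusted p under 0.05) and 19 above 0. Between males and F2/metestrus females 21 of the 22 were below 0 with a median of -0.53. For this list edgeR called 0 there (15 at an unadjusted p under 0.05, against 8.31% of all genes tested). Among its most abundant genes, *Ifit3*, which limits viral RNA and has the near copy *Ifit3b*, had a log2 fold change of 0.54 ± 0.20 and *Ifit2* of 0.10 ± 0.08. Of 12 interferon-gamma targets, 4 shared the 3 highest samples, namely *Psmb8* and *Psmb9* of the immunoproteasome, the peptide transporter *Tap1* and the checkpoint ligand *Cd274*. The median of the 11 tested was 0.47 between the female groups, with 0 called and 6 at an unadjusted p under 0.05, and -0.49 between males and F2/metestrus females, with 0 called and 7 at an unadjusted p under 0.05. The highest log2 fold change of this list was that of the chemokine *Cxcl10*, 2.30 ± 0.89 (SE), which was named after its values were seen and had 1.47, 0.231 and 4.81 CPM in F2/metestrus samples 2, 4 and 5 against at most 0.704 CPM elsewhere. *Cd274* had a log2 fold change of 0.63 ± 0.18, while *Psmb10*, of the same proteasome, had 0.04 ± 0.10. Of 7 further IRG genes, *Gm12185* and *F830016B08Rik* shared the 3 highest samples, with 0 of the 5 tested called (1 at an unadjusted p under 0.05). *Irgq*, the most abundant of them, did not, at 97.3 to 138 CPM over the 18 samples. *Gm12185* shares 223 bp of exon with *Tgtp1* on the same strand, and its highest sample was also F2/metestrus 4, at 1.33 CPM. The 11 autophagy partners, such as *Gabarapl1* and *Map1lc3b*, through which GMS and GKS proteins are placed on membranes, had log2 fold changes of -0.03 to 0.04 between the female groups, with 0 called and 0 at an unadjusted p under 0.05.

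**Figure D5:**
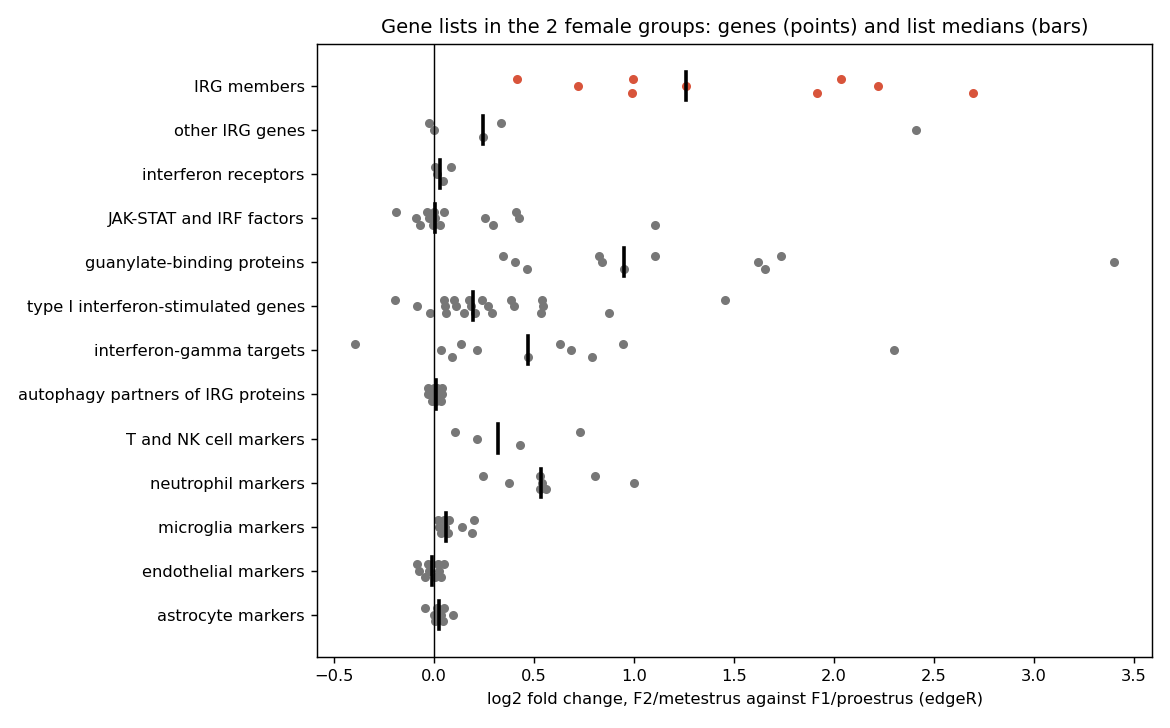
Log2 fold change (edgeR) between the female groups, F2/metestrus over F1/proestrus, for the genes (points) of each list, with the list median as a bar. The IRG median is at 1.26 and that of guanylate-binding proteins at 0.95, and the receptors and autophagy partners lie near 0.

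By likeness over the whole table, 9 of the 10 genes other than members whose log2 CPM had the highest Spearman's rho with the mean of the 9 members over 18 samples were *Gbp3* (0.944), *Gm43302* (0.913), *Ifit3* (0.909), *Gbp9* (0.895), *Gbp7* (0.884), *Gbp6* (0.884), *Phf11d* (0.878), *Zbp1* (0.864) and *Gbp4* (0.853). Without F2/metestrus samples 4 and 5, the 2 farthest from the median, Pearson's r with the mean was lowest for *Gbp9* (0.734), was 0.938 for *Gbp3* and 0.945 for *Gbp7*, and was highest for *Gbp6*. *Gbp4* resembled *Tgtp1* and *Tgtp2* in having its highest value in sample 4, with 15.2 CPM against 4.59 CPM in sample 5. *Gbp10* (2.20 against 1.89 CPM) and some other genes of the guanylate-binding protein list were also highest in sample 4. The remaining genes of that list were highest in sample 5.

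Markers of other cells were checked beside these values. The summed level of 12 T and NK cell markers was also highest in F2/metestrus samples 2, 4 and 5, at 3.60, 3.93 and 3.86 CPM against 2.10 to 3.31 CPM in the other 15 samples. By group it was 2.42 to 3.17 CPM in F1/proestrus females, 2.58 to 3.93 CPM in F2/metestrus females and 2.10 to 3.31 CPM in males, and 4 of the 12 genes had enough counts to be tested, with 0 called (0 at an unadjusted p under 0.05). *Trac* made up most of it, and the defining marker *Cd3e* stayed at 0.10 to 0.26 CPM in all samples. *Cd3d* and *Cd8a* were at 0 in 10 and 14 of the 18 samples. *Cd3d*, *Cd8a* and *Cd3g* were each highest in F2/metestrus sample 2, with 24, 12 and 14 reads, but *Cd3d* and *Cd8a* had 0 reads in samples 4 and 5. Other genes of the list were highest by CPM outside these 3 samples. They were *Cd4* in F1/proestrus sample 5, *Ncr1* in male 1, *Cd8b1* and *Klrb1c* in male 4, and *Gzma* and *Gzmb* in male 5. Of this list only the cytotoxic granule gene *Nkg7* shared the 3 highest samples, at 0.22, 0.42 and 0.25 CPM, and it was singled out after its values were seen. Their part in the IRG levels was not tested. The summed markers of microglia (352 to 444 CPM), endothelium (276 to 332 CPM) and border macrophages and monocytes (10.7 to 23.5 CPM) were not highest in these 3 samples. Summed neutrophil markers were 4.00 to 11.6 CPM in females and 17.1 to 31.995 CPM in males, the opposite order to that of the IRGs between the sexes, and those of Schwann cells were 1330 to 2726 CPM in females and 1931 to 4653 CPM in males. For males against females edgeR called 2 of the 8 neutrophil markers tested, *Lcn2* and *Mpo*, against 0.197% of all genes. It also called 1 of the 8 Schwann cell markers tested, *Ncmap*, and all of these were higher in males. Against F2/metestrus females alone it called *Lcn2* and *Ncmap*, and against F1/proestrus females alone *Lcn2* and *Mpo*. In these 2 comparisons it called 0.129% and 0.0925% of all genes. Between the female groups all 8 neutrophil markers tested were above 0, as were the IRGs, with a median log2 fold change of 0.54 and 0 called (0 at an unadjusted p under 0.05). Their part was not tested.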

How the data were processed

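The authors deposited raw counts of reads on exons for 18 DHSC samples, without normalization. Per the methods, reads were uniquely mapped to mm10 with Subread and counted with featureCounts. Strand use and the handling of reads over several genes are not given in the sources used here, and the sources name different library kits (TruSeq in the methods, SMART-Seq with Nextera XT in the labels). A deposited DESeq2 table, with fold changes and p-values of a comparison by the authors, was used for gene symbols only. GENCODE vM21 held 55394 of 55573 gene IDs.

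Groups follow the sample titles. Counts were filtered with filterByExpr (minimum count 10, minimum total 15), normalized with TMM and tested across all genes with edgeR 4.0.16 (quasi-likelihood test, R 4.3.3, Benjamini-Hochberg, FDR of 5%). Each SE was derived from the F statistic (log2 fold change over root F). Females were compared in a fit of 12 samples, the sexes in a fit of 18, and males with each female group in a fit of 3 groups. The edgeR script was tested on simulated data. DESeq2 1.42.0 and the settings named in the closing section were alternatives. RPKM are CPM per 1000 bp of union exon length.

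The members, the gene lists and the library series were chosen with earlier results of these data known. Named genes are the members, genes of the lists that were called, interferon ligands, receptors, the IRFs, up to 4 abundant genes of the other lists, and the 10 genes most alike by Spearman's rho, of which 1 is not reported here. Promoter windows are from RefSeq on GRCm38.p6.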

Additional observations from a re-analysis of the deposited data

Results flagged for a closer look

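A sample far from the other 5 of its group was looked for in 54 groups of values, 3 for each of the 9 members, 4 receptor chains and 5 factors of the pathway. Chance flags about 1 in 20 such groups, and 2 were flagged. *Tgtp1* in F2/metestrus sample 4 had 8.37 CPM, and *Tgtp2* in the same sample had 11.6 CPM, each far above the next F2/metestrus value of 1.86 and 4.80 CPM. These near copies share most of their sequence, so the flags are not independent.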

How the results depend on the processing

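Between the female groups and between the sexes, the count of members called was 0 under every alternative. For males against F2/metestrus the count of 1 became 8 with DESeq2, 4 with no filter on low counts, 2 with the library series as covariate, and 0 with robust dispersions, the replicate block, series 1 or series 2 alone, the 2 groups compared alone, or F2/metestrus 2, 4 and 5 left out. Leaving out single samples gave 0 to 6. With DESeq2 the pathway genes called were 1 between the female groups (*Gbp10*) and 2 between the sexes (*Gbp9* and *Ifi44*), against 0 with edgeR. DESeq2 called 0.00453% and 0.696% of all its genes in these comparisons. Pathway genes here were 8 interferon ligands, 4 receptors, 15 JAK-STAT and IRF factors, 12 guanylate-binding proteins, 22 type I genes and 12 interferon-gamma targets. The 7 further IRG genes and the 11 autophagy partners were also included. The direction reversed for males against F1/proestrus in *Gm12250* (0.0487 with the replicate block, 0.25 in series 1 alone) and *Ifi47* (0.0013 in series 1 alone), and for the female groups in *Igtp* (-0.0704 with the 3 samples left out). The cause of these changes was not tested. Of 18 correlations between same-numbered samples, 9 were over 0.1 (range -0.10 to 0.23). No differently numbered samples were set beside them, so whether the replicate numbers pair the samples cannot be told. The replicate block ended the call of Iigp1 (Iigp1 log2 fold change, males against F2/metestrus: -1.956, adjusted p = 0.0685) and changed no other call of a member. Over all genes it moved the calls from 49 to 148 for males against females, from 23 to 50 against F1/proestrus and from 32 to 63 against F2/metestrus. The library series as covariate gave 134, 46 and 75 calls in these comparisons. Replicates 1 to 3 are all in series 1 and replicates 4 to 6 in series 2, so the block takes up the series as well. Counting error is largest for *Gm4951* and *Gm12250*, with down to 9 reads a sample.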
